A study of Mus musculus with 6 samples.

Results

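The interleukin-1 family genes examined here are 10 genes: the ligand genes Il1a, Il1b, Il18 and Il33, the antagonist gene Il1rn, and the receptor genes Il1r1, Il1rap, Il1rl2, Il1r2 and Sigirr. They were taken by symbol from a table of 38924 mouse genes. All 10 were among the 15525 genes that passed the filter on low counts. RNA was sequenced from CD49f-positive epidermal cells of mice, sorted from skin suspensions. CD49f, or integrin alpha 6, anchors basal keratinocytes to the basement membrane and marks them at the surface. All 6 libraries, controls included, were flox/flox for Rnaseh2b, the gene of a subunit of RNase H2, which cuts at ribonucleotides built into DNA. The groups differ in K14-Cre, whose keratin 14 promoter is active in basal keratinocytes and drives the recombinase there: 3 libraries were K14-Cre-positive (Cre-positive) and 3 K14-Cre-negative (Cre-negative). The labels give no age and do not say whether libraries are separate animals or pools, so p-values cover the spread between these libraries, which may be technical in part.

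Interleukin-1 cytokines are alarm signals of the epidermis. Keratinocytes keep IL-1 alpha and IL-18 in store, while IL-1 beta is mostly made by activated myeloid cells and, like IL-18, is released in active form after cleavage by caspase-1. IL-1 alpha and IL-1 beta bind the receptor IL1R1, which recruits the accessory chain IL1RAP and signals through MYD88 to NF-kappaB. The pathway is restrained by the antagonist IL1RN, which occupies IL1R1 without recruiting the accessory chain, by the decoy receptor IL1R2, which lacks a signalling domain, and by SIGIRR, an inhibitory receptor.

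Depth ran from 22948779 to 31718094 counts per library. Levels are given as CPM, counts relative to the sum of all tested genes in a library, adjusted with the trimmed mean of M values (TMM). A floor of 3 counts corresponded to 0.0922 to 0.143 CPM, and floors cover counting error only. Rnaseh2b had 5.29, 3.98 and 3.28 CPM in the Cre-positive libraries and 21.8, 20.7 and 21.7 CPM in the Cre-negative ones, in the direction of the labels. The 6 basal keratinocyte markers, Krt5 the most abundant, summed to 15340 to 16910 CPM in Cre-positive and 14550 to 16760 CPM in Cre-negative libraries. The 5 suprabasal markers, Krt10 the most abundant, summed to more than the basal ones in every library, at 102400 to 138200 CPM against 81270 to 103100 CPM. Cre-positive replicate 3 stood apart from the other libraries of its group: compared by chi-square over genes, its counts differed from replicates 2 and 1 by 45.6 and 63.7 per degree of freedom, against 13.7 between those and 8.70 to 13.2 within the Cre-negative group. It also held the highest suprabasal sum. By Xist and Y-linked counts it was the female library of its group, with Cre-positive replicates 1 and 2 male, Cre-negative replicate 2 male and Cre-negative replicates 1 and 3 female. Where leaving it out moved a named value by over 1.5 times or turned its sign, the value without it is given.

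None of the 10 family genes passed the threshold of 0.05 on the adjusted p in edgeR's quasi-likelihood test. Over all genes 0.515% passed, so a count of 0 among 10 genes lies near the background. Il1rn, the antagonist gene, was the 1 gene of 10 with an unadjusted p under 0.05, on the higher side, against 18.8% of all genes, 10.3% higher and 8.48% lower. Limma-voom called 0 of 10, against 0.335% of all genes higher and 0.0902% lower. The Wald test of DESeq2 called Il1rn alone, as higher in Cre-positive cells, where it called 3.79% of all genes higher and 1.94% lower. Of the log2 fold changes, 7 were above 0 and 3 below, where 49.0% of all genes lay above 0. The median over the 10 was 0.18, and over all tested genes it was -0.0048. Without Cre-positive replicate 3 the median of the 10 was 0.062, with 0 past the threshold, where 2.65% of all genes passed.

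Il1rn (ENSMUSG00000026981) encodes the IL-1 receptor antagonist and spans 24336853 to 24351494 of chromosome 2 (mm10, plus strand), with 7 counted exon blocks. The gene has more than 1 start, from which secreted and intracellular forms are made, and the counts sum all of them. The bases before 2 of its starts are shown because Il1rn is the family gene with the smallest p. The window before the single listed start of Il1b is shown because Il1b was the other family gene whose groups did not overlap. Sequences are from RefSeq on GRCm38.p6, the same assembly as mm10, over the 250 bases before each start and written 5′ to 3′ in the direction of the gene. Capitals mark matches, on either strand, to a short form of the NF-kappaB site (GGG and CC with any 5 bases between them) or to the AP-1 site TGANTCA. Matches to the 2 motifs do not overlap in these windows.
Il1rn upstream start, chr2:24336610-24336859, plus strand: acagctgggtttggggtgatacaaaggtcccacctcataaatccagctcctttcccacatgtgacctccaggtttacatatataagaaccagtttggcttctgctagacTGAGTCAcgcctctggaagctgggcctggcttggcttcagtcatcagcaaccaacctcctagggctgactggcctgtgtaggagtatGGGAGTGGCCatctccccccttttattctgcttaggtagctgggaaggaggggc
Il1rn downstream start, chr2:24345041-24345290, plus strand: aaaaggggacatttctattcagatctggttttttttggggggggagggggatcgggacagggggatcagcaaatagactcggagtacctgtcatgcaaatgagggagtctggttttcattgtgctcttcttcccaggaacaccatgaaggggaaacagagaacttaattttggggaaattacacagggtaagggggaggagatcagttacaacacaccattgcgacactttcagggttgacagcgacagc
Il1b, chr2:129371140-129371389, minus strand: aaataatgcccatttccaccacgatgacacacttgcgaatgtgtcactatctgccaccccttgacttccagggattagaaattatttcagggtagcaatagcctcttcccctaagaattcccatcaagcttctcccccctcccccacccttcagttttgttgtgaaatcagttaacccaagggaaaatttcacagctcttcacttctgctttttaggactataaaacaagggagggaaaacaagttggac
The upstream Il1rn window held 1 match to each motif, and the other 2 windows held none. Among the 13 windows listed for 9 of the 10 family genes, 4 held the NF-kappaB form and 2 held TGANTCA. Over all 32851 windows of this length, 45.8% held the former and 6.75% the latter. Another Il1rn start lies close to the downstream one, and its window held 1 match to the NF-kappaB form. Sigirr had no entry in the promoter table. These matches describe letters only, and no binding was measured.

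Il1rn had 99.8, 121 and 123 CPM in Cre-positive replicates 1, 2 and 3 and 88.7, 87.1 and 83.2 CPM in Cre-negative replicates 1, 2 and 3. Every Cre-positive library lay above every Cre-negative one, which was the case in this direction for 14.1% of all genes. The means were 115 ± 13.1 and 86.3 ± 2.85 CPM (SD, n = 3 each), a log2 fold change of 0.41 (SE 0.10, 95% interval 0.18 to 0.64, adjusted p = 0.118 by edgeR, unadjusted p = 0.00358). In DESeq2 the adjusted p was 0.0136, and over all 13 alternatives it ran from 0.0136 to 0.385. Without Cre-positive replicate 3 the log2 fold change was 0.36 (adjusted p = 0.0931 by edgeR). Within the male libraries the log2 ratio of the means was 0.34 and within the female ones 0.52.

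Among the ligands, Il18, which encodes a cytokine stored by keratinocytes, had 57.2, 73.3 and 81.1 CPM in Cre-positive and 56.8, 57.3 and 58.6 CPM in Cre-negative replicates 1 to 3. Cre-positive replicate 1 lay inside the narrow Cre-negative range, and the other 2 lay above it. The log2 fold change was 0.29 (SE 0.13, 95% interval -0.0025 to 0.59, adjusted p = 0.270 by edgeR), and it was 0.18 without Cre-positive replicate 3. The counted Il18 model of 714 bases starts at 50575273 on chromosome 9, downstream of the start that RefSeq lists, so reads from a first exon outside it are not in these counts.

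Il1a, which encodes the IL-1 alpha that keratinocytes hold in store, had 18.1, 17.2 and 22.7 CPM in Cre-positive and 17.2, 18.2 and 16.0 CPM in Cre-negative libraries. The groups overlapped, with Cre-positive replicate 3 the one library above the rest. Its log2 fold change was 0.17 (SE 0.12, adjusted p = 0.480 by edgeR), and 0.042 without that library. A share of 11.2% of the exon bases of Il1a also belongs to Gm14023, an antisense gene with a mean of 19.8 counts, where Il1a had 389 to 588. The strand setting of the counting is not given in the sources used here, so the reads of such a pair cannot be told apart.

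Il1b, which encodes IL-1 beta, was near the limit of detection, and its counts were 17, 10 and 10 with Cre against 14, 19 and 21 without. These are 0.523, 0.443 and 0.475 CPM against 0.562, 0.780 and 0.799 CPM. The Cre-positive libraries all lay below the Cre-negative ones, as 13.8% of all genes did. The log2 fold change was -0.56 (SE 0.27, 95% interval -1.20 to 0.079, adjusted p = 0.315 by edgeR). Il1b is a gene of myeloid cells, whose markers moved in both directions between the groups. The 8 macrophage markers summed to 149 to 192 CPM in Cre-positive and 121 to 134 CPM in Cre-negative libraries, with none at 0. Past the threshold and higher was 1 of 8, Lyz2, against 0.406% of all genes. The 7 Langerhans and dendritic cell markers summed to 12.2 to 32.2 against 66.8 to 115 CPM. Past the threshold and lower was 1 of the 6 tested, H2-Ab1, against 0.11% of all genes. Of the 6 neutrophil markers, Ly6g and Elane were at 0 in every library, and the 6 summed to 2.04 to 3.99 against 1.45 to 1.97 CPM. The part of these cells in the level of Il1b was not tested. In bulk RNA, fewer cells of a type and less RNA per cell cannot be told apart.

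Il33, which encodes a nuclear alarmin, had 5.50, 5.27 and 3.56 CPM in Cre-positive and 3.85, 6.45 and 5.59 CPM in Cre-negative libraries. The groups overlapped, with the lowest library in the Cre-positive group and the highest 2 in the Cre-negative one. The log2 fold change was -0.14 (SE 0.25, adjusted p = 0.784 by edgeR) and turned to 0.024 without Cre-positive replicate 3 and 0.023 without Cre-negative replicate 2. Stromal cells and vessels are other sources of Il33. The 6 fibroblast markers, Dcn the most abundant per kb, summed to 176 to 1368 CPM in Cre-positive and 196 to 811 CPM in Cre-negative libraries, and the 6 endothelial markers, led per kb by Cldn5, to 1.90 to 24.5 against 2.73 to 22.0 CPM. Cre-positive replicate 1 had the highest sum of either list, and none of the markers was at 0 throughout. Their part in the level of Il33 was not tested.

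**Figure D1:**
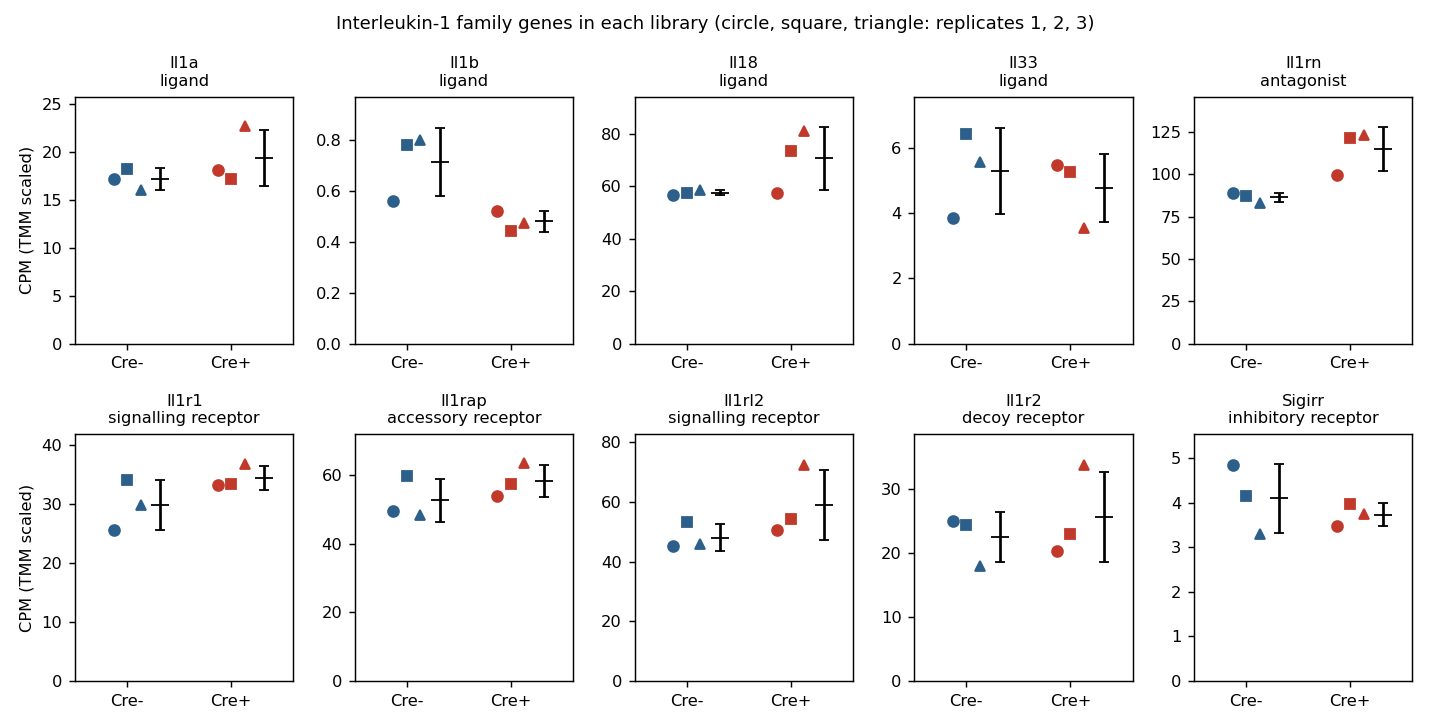
CPM of each of the 10 interleukin-1 family genes in the 3 Cre-negative (blue) and 3 Cre-positive (red) libraries, with the mean and SD beside each group and each vertical axis starting at 0. Il1rn separated the groups upwards and Il1b downwards, while the groups of the other 8 genes overlapped.

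The receptor genes had log2 fold changes from -0.14 to 0.30, and the groups of all 5 overlapped. Il1r1, the gene of the signalling receptor for IL-1, had 33.2, 33.4 and 36.8 CPM in Cre-positive and 25.6, 34.1 and 29.8 CPM in Cre-negative libraries. Cre-negative replicate 2 lay among the Cre-positive libraries. The log2 fold change of Il1r1 was 0.21 (SE 0.12, adjusted p = 0.375 by edgeR), and without Cre-positive replicate 3 it was 0.16. Il1rap, the gene of the accessory chain shared by the receptors for IL-1, IL-33 and IL-36, had 54.0, 57.5 and 63.4 CPM in Cre-positive against 49.6, 59.8 and 48.5 CPM in Cre-negative libraries. Its log2 fold change was 0.15 (SE 0.11, adjusted p = 0.479 by edgeR), with a 95% interval of -0.10 to 0.40, and it was 0.082 without Cre-positive replicate 3.

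Il1rl2 encodes the receptor for IL-36, a set of related cytokines made by keratinocytes. It had 50.7, 54.2 and 72.5 CPM in Cre-positive and 45.1, 53.1 and 45.9 CPM in Cre-negative libraries. Cre-positive replicate 3 lay 1.34 times above the next library. The log2 fold change was 0.30 (SE 0.15, adjusted p = 0.317 by edgeR) and was 0.13 without that library. The decoy receptor gene Il1r2 had 20.3, 23.0 and 33.6 CPM in Cre-positive and 25.0, 24.4 and 18.0 CPM in Cre-negative libraries. Here too Cre-positive replicate 3 was 1.35 times above the next library, and the other Cre-positive libraries lay within the Cre-negative range. The log2 fold change of Il1r2 was 0.19 (SE 0.21, adjusted p = 0.654 by edgeR) and turned to -0.054 without replicate 3. Sigirr, the inhibitory receptor gene, had 3.47, 3.98 and 3.75 CPM in Cre-positive and 4.85, 4.15 and 3.31 CPM in Cre-negative libraries, a log2 fold change of -0.14 (SE 0.19, adjusted p = 0.718 by edgeR). It turned to 0.0032 without Cre-negative replicate 1.

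**Figure D2:**
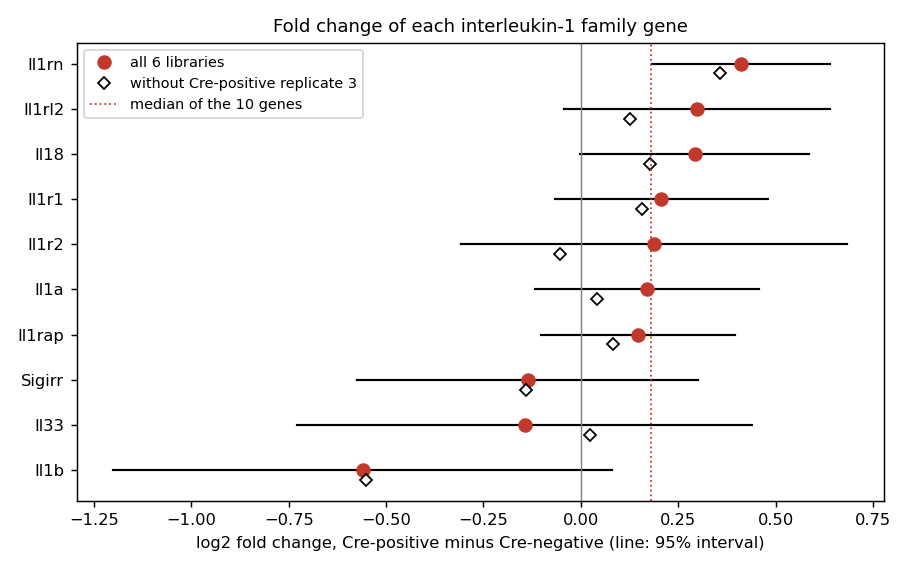
Log2 fold change of each gene (red points, all 6 libraries) with its 95% interval (lines), and the same without Cre-positive replicate 3 (open diamonds). The interval of Il1rn, 0.18 to 0.64, was the one that did not include 0, and without replicate 3 Il1r2 and Il33 changed sign.

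In TMM-scaled CPM, Cre-positive replicate 3 was the highest of the 6 libraries for 7 of the 10 genes: Il1a, Il18, Il1rn, Il1r1, Il1rap, Il1rl2 and Il1r2. Its TMM factor was 0.885, against 0.975 to 1.06 elsewhere, and a lower factor raises CPM. On plain totals it was not the highest for Il1rn, Il1r1 or Il1rap. Cre-positive replicate 2 had 2743 Il1rn counts against its 2597, on a smaller total. Cre-negative replicate 2 had 831 Il1r1 and 1455 Il1rap counts against its 775 and 1335, also on a smaller total. Over all tested genes, in TMM-scaled CPM, Cre-positive replicate 3 was the highest in 29.1%. It had the highest suprabasal marker sum, 138200 CPM, against 102400 and 123100 CPM in Cre-positive replicates 1 and 2. The part of these cells in the family's levels was not tested. Replicate 3 is also the female library of its group. Within the male libraries the log2 ratio of the means was -0.048 for Il1a, -0.037 for Il1r1, -0.10 for Il1rap, -0.019 for Il1rl2 and -0.17 for Il1r2. Within the female libraries these 5 genes had 0.45, 0.41, 0.37, 0.67 and 0.65. Il1rn and Il18 lay above 0 in both sexes, at 0.34 and 0.19 in males and 0.52 and 0.49 in females. Each of these ratios sets 1 library against 2 and has no test. In the Cre-negative group, which holds both sexes, the male library was the highest for Il1a, Il1r1, Il1rap and Il1rl2. A female library was the highest there for Il1r2, Il18 and Il1rn. The part of sex in these levels was not tested. With sex as a covariate in edgeR, the log2 fold changes of Il1a, Il1r1, Il1rap, Il1rl2 and Il1r2 were 0.20, 0.19, 0.13, 0.33 and 0.24. This fit takes its female Cre-positive values from replicate 3 alone, so sex and that library cannot be told apart in it. Those of Il1rn and Il18 were then 0.43 (adjusted p = 0.120) and 0.34 (adjusted p = 0.193).

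Levels of different genes were compared per kilobase of counted exon. In Cre-negative cells the order ran from Il18 at 80.6 ± 1.31 CPM per kb (SD, n = 3) through Il1rn at 26.9 ± 0.888, Il1rl2 at 24.6 ± 2.26, Il1r2 at 16.8 ± 2.90 and Il1a at 8.69 ± 0.561. It went on through Il1r1 at 5.90 ± 0.845, Il1rap at 4.63 ± 0.547, Sigirr at 2.06 ± 0.388 and Il33 at 1.84 ± 0.459 to Il1b at 0.374 ± 0.0693 CPM per kb. The order in Cre-positive cells was the same. The libraries of neighbours in this order overlapped for Il1rn with Il1rl2, Il1r1 with Il1rap and Sigirr with Il33 in Cre-negative cells, and in Cre-positive cells for the first and last of these pairs. The lengths matter for this order: with the exon length of GENCODE M21, an alternative chosen after seeing the data, Il1rl2 had 6812 bases in place of 1950 and moved from rank 3 to rank 5 at 7.05 CPM per kb. Il1r2 and Il1a then took ranks 3 and 4, Il33 and Sigirr changed places, and Il1rn kept rank 2 at 15.6 CPM per kb. Il18 stayed first on that scale, at 55.8 CPM per kb.

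**Figure D3:**
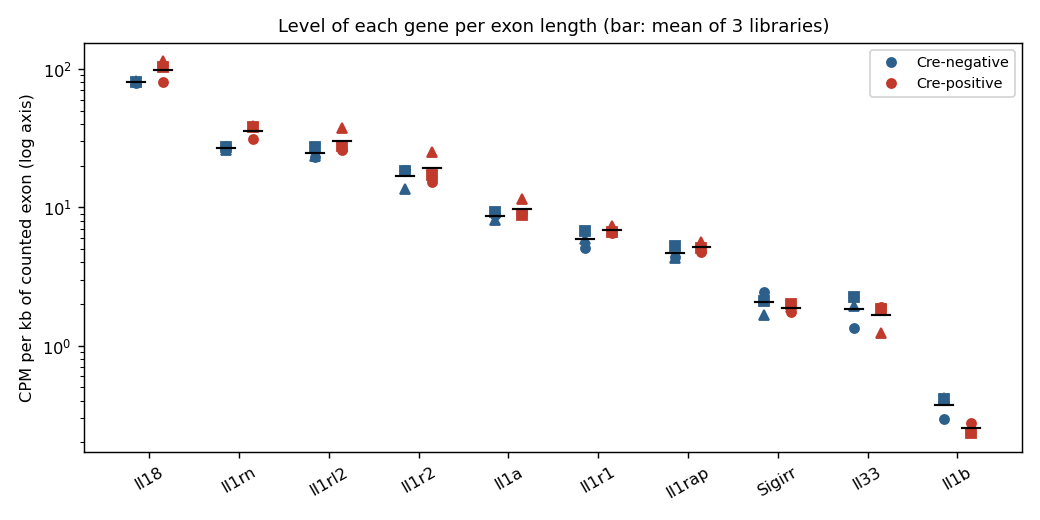
CPM per kb of counted exon on a log axis for each gene, with 3 Cre-negative (blue) and 3 Cre-positive (red) libraries and their means (bars). Il18 lay at the top and Il1b at the bottom in both groups.

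Of the other family genes, 8 of 11 passed the count filter, and 0 rose or fell by edgeR. Of these 8, 4 had an unadjusted p under 0.05 and all 4 lay higher, where 10.3% of all genes did so. DESeq2 called 2 higher, against 3.79% of all genes, and limma-voom 0. The median of the list was 0.52, or 0.29 without Cre-positive replicate 3. The 4 were the IL-36 genes, listed in this annotation as Il1f5, Il1f6, Il1f8 and Il1f9. Il1f5 encodes the IL-36 receptor antagonist, and Il1f6, Il1f8 and Il1f9 encode IL-36 alpha, beta and gamma, ligands of the receptor made from Il1rl2. Il1f5 had 608, 701 and 884 CPM in Cre-positive and 547, 567 and 518 CPM in Cre-negative libraries. Its groups did not overlap, and the log2 fold change was 0.43 (SE 0.14, adjusted p = 0.194 by edgeR), or 0.27 without Cre-positive replicate 3. Per kb it had 185 CPM in Cre-negative cells, above each of the 10 genes.

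Il1f6 had 32.7, 37.9 and 73.0 CPM in Cre-positive and 23.7, 23.8 and 29.4 CPM in Cre-negative libraries, a log2 fold change of 0.90 (SE 0.29, adjusted p = 0.191 by edgeR). Il1f8 had 36.3, 40.6 and 88.5 against 25.4, 29.6 and 28.9 CPM, with 0.98 (SE 0.33, adjusted p = 0.194 by edgeR). Il1f9 had 57.8, 59.9 and 136 against 47.6, 47.2 and 46.9 CPM, with 0.84 (SE 0.32, adjusted p = 0.231 by edgeR). In all 3 ligand genes the Cre-positive libraries lay above the Cre-negative ones, and replicate 3 lay far above replicates 1 and 2. All 5 suprabasal markers were highest in replicate 3 as well. The largest fold change among them was that of Ivl, the involucrin gene of the cornified envelope. Ivl had 303, 332 and 689 CPM in Cre-positive and 241, 224 and 242 CPM in Cre-negative libraries. Krt10, the most abundant, had 52410, 64860 and 67530 against 52900, 40770 and 49760 CPM. Its groups overlapped, and replicate 3 lay close to replicate 2. Of the 5 suprabasal markers 4 had an unadjusted p under 0.05, all higher, against 10.3% of all genes higher. In edgeR 0 of the 5 passed the threshold, against 0.515% of all genes. Their part in the IL-36 values was not tested. Without replicate 3 the log2 fold changes of Il1f6, Il1f8 and Il1f9 were smaller, at 0.46, 0.46 and 0.32. The edgeR adjusted p were then 0.0931, 0.0494 and 0.0430, so 2 of the 3 passed the threshold. Of all genes 2.65% passed without that library, against 0.515% with it. Over all alternatives the adjusted p of Il1f6, Il1f8 and Il1f9 ran from 0.0347 to 0.437, 0.0325 to 0.464 and 0.0430 to 0.492. The remaining genes of this list that were tested, Il1f10, Il18r1, Il18rap and Il18bp, had log2 fold changes of 0.18, 0.61, -0.055 and 0.39, and that of Il18rap turned to 0.039 without replicate 3. Il1rl1, the receptor gene for IL-33, was below the filter, with 0.0401 to 0.343 CPM.

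**Figure D4:**
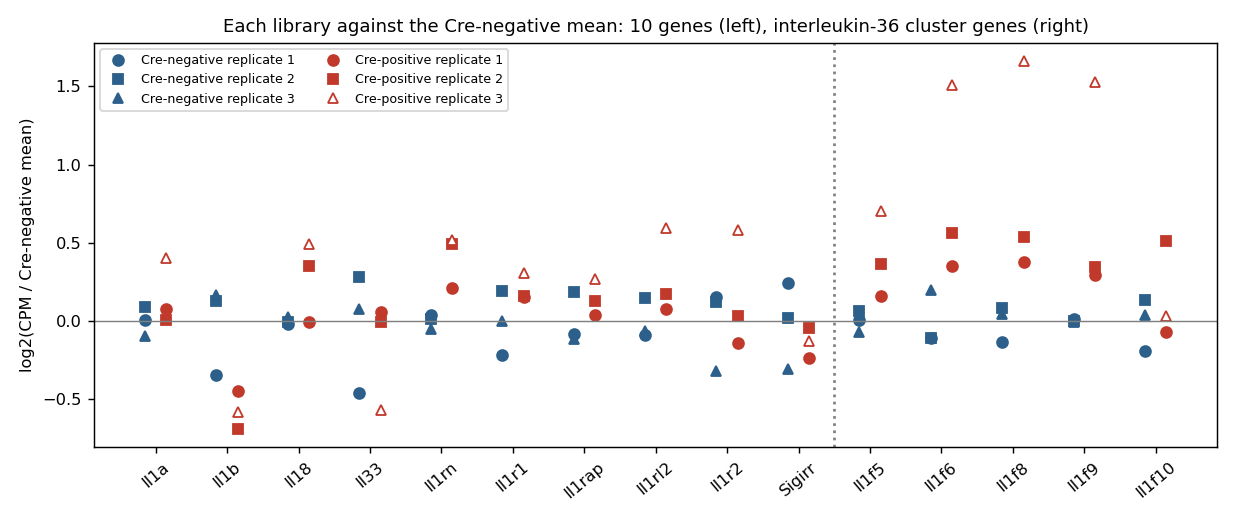
Log2 of the CPM of each library over the Cre-negative mean, for the 10 family genes and, right of the dotted line, 5 genes of the IL-36 cluster. In TMM-scaled CPM, Cre-positive replicate 3 (open triangles) was the highest library for 7 of the 10 genes and lay farthest out for Il1f6, Il1f8 and Il1f9.

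Most of these genes sit in gene clusters. On chromosome 2, 6 genes lie within 198 kb from 24153161 to 24351494 in the order Il1f8, Il1f9, Il1f6, Il1f5, Il1f10 and Il1rn. All 6 had log2 fold changes above 0, with a median of 0.63, and the groups of 5 did not overlap, where 49.0% of all genes lay above 0 and 14.1% were separate and higher. Without Cre-positive replicate 3 that median was 0.34. On chromosome 1, 6 receptor genes lie within 467 kb from 40084768 to 40551705 in the order Il1r2, Il1r1, Il1rl2, Il1rl1, Il18r1 and Il18rap. Of the 5 tested there, 4 had log2 fold changes above 0, with a median of 0.21 (0.13 without that library), and the groups of none were separate. Il1a and Il1b lie apart from the first cluster on chromosome 2, between 129299610 and 129371139. Neighbours in a cluster are not independent, and the groups of genes were not compared by a test.

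Among 21 genes of receptor-proximal signalling, 0 rose or fell by edgeR. DESeq2 called 1 higher, against 3.79% of all genes, and limma-voom 0. An unadjusted p under 0.05 was found for 4, all higher, against 18.8% of all genes in either direction and 10.3% higher. The groups of 7 were separate and higher and those of 1 separate and lower, against 14.1% and 13.8% of all genes. The list was not tested against these shares. The list's median log2 fold change was 0.10, with 18 above 0 and 3 below, where 49.0% of all genes lay above 0. Without Cre-positive replicate 3 the median was 0.031, with 14 above 0. Map3k7, which encodes the kinase TAK1 that activates the NF-kappaB and MAP kinase branches, had 97.5, 98.3 and 95.7 CPM in Cre-positive and 82.7, 81.4 and 79.3 CPM in Cre-negative libraries. The 2 groups were far apart relative to their spread, at a log2 fold change of 0.26 (SE 0.062, adjusted p = 0.118 by edgeR and 0.0130 in DESeq2). Traf6, the ubiquitin ligase gene of this pathway, had 0.45 (SE 0.15, adjusted p = 0.191 by edgeR) and Tollip, the gene of an inhibitory adaptor and the most abundant per kb, 0.46 (SE 0.17, adjusted p = 0.222 by edgeR). Without Cre-positive replicate 3, Map3k7 kept 0.27, while Traf6 had 0.28 and Tollip 0.23. With total count scaling Map3k7 had 0.15 (adjusted p = 0.357 by edgeR), where the median of all genes was -0.12. Over all alternatives the adjusted p of Map3k7 ran from 0.0130 to 0.403.

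Of the genes of cytokine processing and the inflammasome, 13 of 16 were tested and 0 rose or fell by edgeR. In this list 4 had an unadjusted p under 0.05, all higher, against 10.3% of all genes higher, DESeq2 called 3, against 3.79%, and limma-voom 0. The median was 0.20, and without Cre-positive replicate 3 it was 0.30. Capn2, a gene of the calpain proteases, which cut the IL-1 alpha precursor, had 89.1, 79.1 and 89.5 CPM in Cre-positive and 52.6, 58.4 and 65.3 CPM in Cre-negative libraries. Its log2 fold change was 0.55 (SE 0.099, adjusted p = 0.0755 by edgeR), and the adjusted p was 0.0440 without Cre-positive replicate 3 and 0.000342 in DESeq2. Nlrp10, which encodes an inflammasome-related protein of differentiated keratinocytes, had 92.4, 114 and 122 against 72.8, 74.9 and 70.6 CPM, with 0.59 (SE 0.11, adjusted p = 0.0780 by edgeR and 0.000476 in DESeq2). Both genes separated the groups in every library. Casp4, the gene of caspase-11 of the noncanonical inflammasome, had 1.54, 1.28 and 1.05 against 0.602, 0.534 and 0.685 CPM and a log2 fold change of 1.09 (SE 0.26, adjusted p = 0.118 by edgeR). Casp1, the gene of the enzyme that cleaves IL-1 beta and IL-18, had 0.20 (adjusted p = 0.569 by edgeR), or 0.35 without Cre-positive replicate 3, and S100a11, the most abundant of the list per kb, 0.12.

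Target genes of IL-1 and NF-kappaB gave a like count: of 28 genes 18 were tested, 0 rose or fell by edgeR, and 5 had an unadjusted p under 0.05, all higher, against 10.3% of all genes higher. DESeq2 called 1, against 3.79% of all genes, and limma-voom 0. The median was 0.48, or 0.27 without Cre-positive replicate 3. Nfkbiz, which encodes the nuclear cofactor that IL-36 and IL-1 induce in keratinocytes, had 21.5, 16.0 and 27.9 CPM in Cre-positive and 13.8, 13.2 and 12.5 CPM in Cre-negative libraries. The groups did not overlap, and the log2 fold change was 0.72 (SE 0.19, adjusted p = 0.140 by edgeR and 0.0194 in DESeq2), or 0.51 without Cre-positive replicate 3. Zc3h12a, the gene of an RNase that degrades cytokine mRNA, had 0.51 (SE 0.17, adjusted p = 0.196 by edgeR), or 0.30 without that library. The cytokine gene Lif had 1.54 (SE 0.39, adjusted p = 0.133 by edgeR) at low levels of 0.475 to 1.02 against 0.201 to 0.343 CPM. Nfkbia, the inhibitor of NF-kappaB and the most abundant per kb, had 79.3, 74.2 and 140 against 56.0, 77.7 and 68.7 CPM, and its log2 fold change of 0.54 was 0.19 without Cre-positive replicate 3. Of the secreted targets, Cxcl1, Cxcl2, Cxcl5, Csf2, Csf3, Il6, Il24, Tslp, Lcn2 and Saa3 were below the count filter. Tnf, Ccl2, Ccl20, Defb4, Il23a, S100a8 and S100a9 were tested, and none passed the threshold by edgeR. Their log2 fold changes were 0.61, 0.84, 0.54, 0.96, 0.044, -0.018 and 0.12. Without Cre-positive replicate 3, Defb4 had 0.62, Il23a 0.072, S100a8 -0.31 and S100a9 -0.24.

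**Figure D5:**
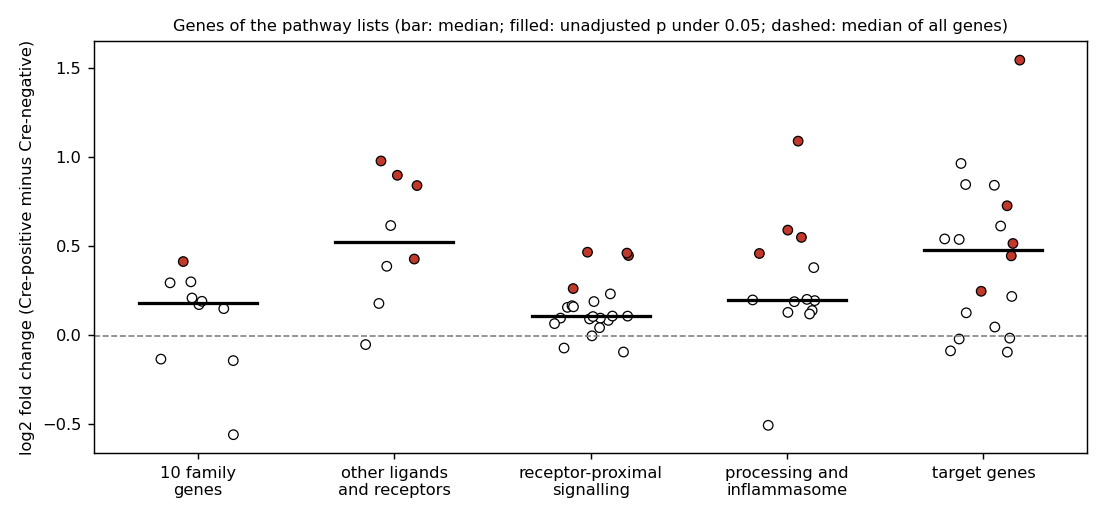
Log2 fold change of each tested gene of the 10 family genes and the 4 pathway lists, with list medians (bars) and the median of all tested genes (dashed line). Filled points have an unadjusted p under 0.05, all filled points lie above 0, and no gene shown passed the threshold on the adjusted p.

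Genes were ranked by how closely their log2 CPM followed that of a family gene over the 6 libraries, by Pearson r with a pseudocount of 0.5 CPM. For Il1rn, the gene with the smallest p, the 5 closest were Frrs1, Pitpnm3, Nlrp10, Dynlt3 and Cpox, at r of 0.992 to 0.995. For Il18, the gene with the highest level per kb, Ier5, Serpina12, Ikzf3 and Stk19 were among the closest, at r of 0.985 to 0.989. With 6 libraries that share the contrast and the same scaling, close values are a description of the pattern only. Cpox, which encodes an enzyme of haem synthesis, had 61.6, 77.2 and 87.2 CPM in Cre-positive and 48.1, 48.1 and 44.7 CPM in Cre-negative libraries. As for Il1rn, Cre-positive replicate 1 was the lowest of its group and lay above all the Cre-negative libraries.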

How the data were processed

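For the 6 libraries the authors deposited a single table of whole-number read counts by gene, unnormalized per the file headers, which also lists the counted exon blocks of each gene and their summed length. The submitters' processing notes name GSNAP, featureCounts and mm10. No version, strand setting or rule for shared reads is given in the sources used here. Symbols were matched by identifier for 37607 of 38924 genes. Genes were kept by filterByExpr with a minimum count of 10, scaled by TMM and tested with edgeR 4.0.16 (R 4.3.3). Tests were two-sided, p-values were adjusted by Benjamini-Hochberg across the 15525 tested genes, and the threshold was 0.05. A positive log2 fold change means higher in Cre-positive cells, and intervals use the moderated spread of that test. The common biological coefficient of variation was 0.172.

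Alternatives were DESeq2 size factors, total count scaling, DESeq2 1.42.0, limma-voom (limma 3.58.1), no filter beyond 1 count, a mean of at least 1 CPM, sex as a covariate, and leaving out each library in turn. The fits were tested on simulated counts. The genes and lists were chosen with earlier results of these data known. Named are the 10 genes, Rnaseh2b, per pathway list the 3 genes of smallest p, any past the threshold and the most abundant per kb, the 5 genes of closest pattern with a mean of at least 1 CPM for 2 family genes, and the most abundant gene of each marker list. A gene that this rule takes is not reported here. Genes named beyond this rule were chosen after their values were seen. They are the IL-36, IL-18 and IL-33 related genes, Lyz2, H2-Ab1, Ly6g, Elane, Ivl, Casp1 and the secreted targets, tested or below the filter. Of the marker lists not given with the results, the 5 mast cell genes, led by Tpsb2, summed to 0.974 to 2.95 CPM in Cre-positive and 1.48 to 8.87 CPM in Cre-negative libraries. The epidermal T cell genes, led by Cd3g, of which 7 of 8 had a row, summed to 6.04 to 7.35 against 12.9 to 16.1 CPM. The 6 melanocyte genes, led by Dct, summed to 595 to 694 against 333 to 388 CPM. Of these 6, 5 were higher past the threshold, against 0.406% of all genes. The most abundant neutrophil gene was Csf3r and the most abundant gene of the Langerhans and dendritic cell list was Cd74, with C1qb that of the macrophage list.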

Additional observations from a re-analysis of the deposited data

How the results depend on the processing

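Over 13 alternatives, 123 of 128 refits of a family gene kept their direction and their side of the threshold. Il1rn passed it in DESeq2 alone (log2 fold change 0.42, adjusted p = 0.0136), so 1 family gene was called higher there. Leaving out 1 library, Il33 ran from -0.33 to 0.024 (also 0.023), Il1r2 from -0.054 to 0.33 and Sigirr from -0.27 to 0.0032. Within the male libraries Il1a had -0.048, Il1r1 -0.037, Il1rap -0.10, Il1rl2 -0.019 and Il1r2 -0.17, while Il1rn and Il18 had 0.34 and 0.19. These values were chosen after seeing the data. The cause was not tested. Over all genes, 63 rose and 17 fell. DESeq2 called 554 and 283, no filter beyond 1 count 104 and 38, sex as a covariate 34 and 8, and total count scaling 27 higher. Leaving out 1 library gave 0 to 288 higher and 0 to 134 lower, with 288 and 134 without Cre-positive replicate 3 and at most 20 and 5 without any other. In the lists, DESeq2 called 2 other family genes, 1 signalling, 3 processing and 1 target gene higher, where it called 3.79% of all genes higher. Leaving out 1 library gave 0 to 2 in the list of other family genes (Il1f8 and Il1f9 without Cre-positive replicate 3) and 0 to 2 in the processing list (Capn2 and Nlrp10 without Cre-positive replicate 3, Nlrp10 without Cre-positive replicate 1). Total count scaling moved the median of all genes to -0.12 and that of the 10 genes to 0.052, with 7 of 10 above 0, where 31.7% of all genes lay above 0. No paired analysis was possible because the labels give the groups no shared replicate numbers. Il1b was not tested at a mean of at least 1 CPM and has no adjusted p in DESeq2, and neither is counted. At 10 to 21 counts per library, depth limits Il1b most.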

Other observations

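The ratio of Il1rn to Il1a, antagonist over agonist, was taken per kb of counted exon in each library, a measure chosen after the values were seen. The size of such ratios, though not the comparison of groups, depends on the lengths used. In GENCODE M21, Il1rn has 5535 bases in place of 3207, and Il1rl2 has 6812 in place of 1950. The 3 Cre-positive libraries had ratios of 3.40, 4.34 and 3.35, and the 3 Cre-negative ones 3.17, 2.94 and 3.19. All Cre-positive libraries lay above the Cre-negative ones, at 3.70 ± 0.558 against 3.10 ± 0.141 (SD, n = 3 each; exact permutation test, two-sided, p = 0.1, the smallest this design allows). Of the 3 ratios computed, the other two did not separate the groups. The ratio of the decoy gene Il1r2 to Il1r1 was 2.79 ± 0.591 against 2.89 ± 0.723 (exact permutation p = 0.8), and that of Il1rl2 to Il1r1 was 4.42 ± 0.600 against 4.20 ± 0.324 (exact permutation p = 0.7). With 3 libraries against 3 the test does not reach the threshold of 0.05 for any values, and Il1rn enters the first as the family gene of smallest p.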
